A study of Homo sapiens with 3 samples.

Results

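The peaks described here lie on chromosome 8 below 65 Mb (hg18) and come from chromatin immunoprecipitation and sequencing (ChIP-seq) of Dickkopf-1 (DKK-1) in DLD-1, an established line from a human colorectal adenocarcinoma. They were selected by position from the regions that MACS, a peak caller, found enriched in DLD-1/DKK-1 cells over DLD-1/Mock cells or over input DNA, and peaks with the same start and end in both lists were counted once. The union held 257 such peaks of 8723 in the whole series, and 2293 further peaks of chromosome 8 lay beyond the boundary. Each condition had 1 library, so no test between conditions was possible and every interval given covers counting error only. The boundary had been set on earlier counts of these peaks, and being called is itself a measured value, so the number of peaks, their fold enrichment and their P value are given as descriptions.

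The first library was the immunoprecipitate of DLD-1/DKK-1 cells, which were transduced with a lentivirus carrying a V5-tagged, doxycyclin-inducible DKK-1 gene. The second was the immunoprecipitate of DLD-1/Mock cells, and the third a pool of input DNA for which the records name no antibody and do not say which cells were pooled. The records name an anti-V5 antibody for both immunoprecipitates and the Methods a DKK-1 antibody, a difference that was not resolved here. All 3 libraries were of the same line, which is described as lacking endogenous DKK-1, and no clone is named. The supplementary methods give doxycyclin in the medium of transduced cells for expression of DKK-1, and the ChIP methods do not name it separately. After removal of duplicates the libraries held 21312041 tags (DLD-1/DKK-1), 24151009 tags (DLD-1/Mock) and 27723787 tags (input).

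DKK-1 is known as a secreted antagonist of Wnt signalling that acts on LRP co-receptors at the cell surface, and the study examined a fraction of it within the nucleus. In colorectal tumors the short arm of chromosome 8 is often lost and the long arm is often gained. Next to centromeres the genome holds satellite repeats, which are assembled incompletely and can gather more reads per base than unique sequence. Gains, losses and repeats change how many tags a stretch gives in the ChIP and in each control. A local background taken from the control allows for this only as far as ChIP and control share it. No coverage track was used here, and the part of copy number or repeats in the counts below was not tested.

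No peak was listed in a 3.02 Mb gap from 43943106 to 46958623, which contains the 45 Mb point and was taken as the centromeric gap. It left 104 peaks on the short arm and 153 on the proximal long arm. The short arm was 43.9 Mb long up to the gap and the long arm 18.04 Mb up to the boundary. The density was therefore 2.37 peaks per Mb on the short arm (95% Poisson interval 1.93 to 2.87) and 8.48 on the proximal long arm (7.19 to 9.94), a ratio of 3.58 (2.78 to 4.64). Beyond 65 Mb it was 28.2 per Mb, a further factor of 3.33. The other 22 chromosomes, with Y left out, had between 0.933 and 5.14 peaks per Mb (median 1.83). Of these, 18 had a lower density than the short arm and 0 had a higher density than the proximal long arm. Their lengths run from first to last peak and include any centromeric gap, whereas the arms of chromosome 8 leave it out. Ranks near the short arm depend on this, since chromosome 18 had 2.33 per Mb. A whole-chromosome density is also a mean over a longer stretch than either arm.

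The difference in mean density between the arms was present in each list. Against DLD-1/Mock there were 63 peaks on the short arm (1.43 per Mb) and 122 on the proximal long arm (6.76 per Mb), and against input there were 81 (1.84 per Mb) and 96 (5.32 per Mb). The ratio of the arms was 4.72 (3.45 to 6.50) for the first list and 2.89 (2.13 to 3.93) for the second. Compared with all chromosomes other than 8, the short arm had 0.870 times their density against DLD-1/Mock and 1.34 times their density against input. The proximal long arm had 4.10 and 3.87 times their density. The lengths of those chromosomes again included any centromeric gap.

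**Figure D1:**
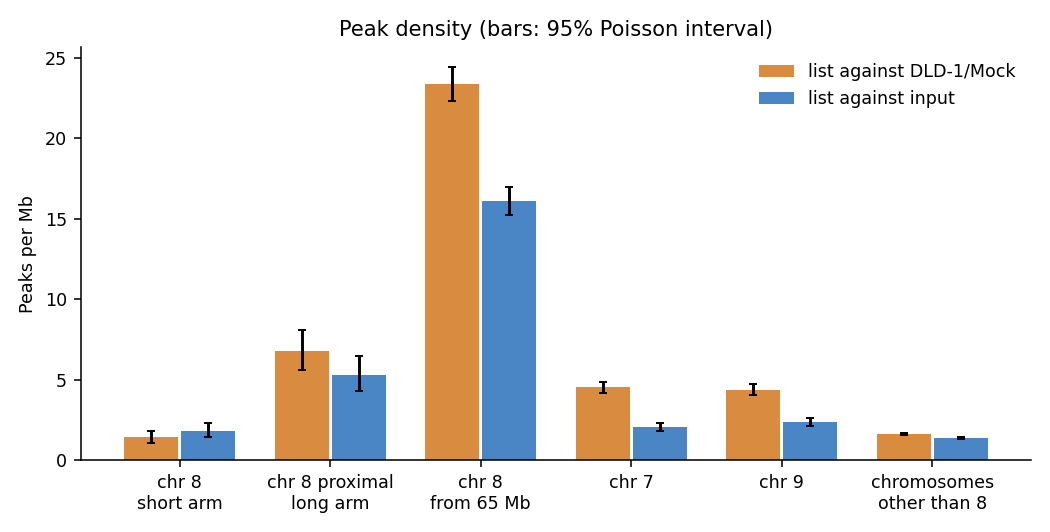
Peaks per Mb (y axis) on the short arm and proximal long arm of chromosome 8, the rest of that chromosome, chromosomes 7 and 9 and all chromosomes other than 8, for the list against DLD-1/Mock (orange) and the list against input (blue). Bars give the density and lines its 95% Poisson interval. The short arm stood at 1.43 and 1.84 per Mb, the proximal long arm at 6.76 and 5.32, and the part from 65 Mb at 23.3 and 16.1.

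Within the short arm, 2 places were much denser than the rest. Of its 44 windows of 1 Mb, 14 held no peak and the median was 1.5 peaks, but the windows from 42 and from 13 Mb held 18 and 17 peaks and the window from 41 Mb held 9. These 3 windows carried 42.3% of the peaks of the arm. Without the stretches from 13 to 14 Mb and from 41 Mb to the gap, which were picked after the windows were seen, 53 peaks remained in 40 Mb, or 1.33 per Mb. The stretch of 2.94 Mb before the gap held 34 peaks, or 11.6 per Mb, which was above the density of the proximal long arm. High density was thus already present before the gap. From 15 to 41 Mb there were 31 peaks in 26 Mb, and the widest stretch without a peak (3.68 Mb) lay there, from 35015739 to 38691044.

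On the proximal long arm, apart from a dense group at its start, peaks were spread more evenly at this window size. None of its 19 windows was empty, the counts ran from 2 to 13 (median 7), and the 3 fullest windows carried 24.2% of the peaks. The variance of the window counts was 1.11 times their mean, against 6.12 times on the short arm. A Poisson interval takes the variance as equal to the mean. The intervals given for the short arm density and for the density ratios are therefore too narrow. The first of the 19 windows held only 41.4 kb of the arm, with 7 peaks, so the densest group of the arm counted as a usual window. Over the 18 whole windows the median was 8 and the variance 1.16 times the mean, but neither value shows that group. The fullest windows began at 61 Mb (13 peaks), 56 Mb and 57 Mb (12 each). At a finer scale, close groups were found on this arm too. From 61694990 to 61873851, 11 peaks lay within 179 kb, each less than 100 kb from the next. Likewise 9 peaks lay within 317 kb, from 56684615 to 57001995. Density rose from 6.84 per Mb below 55 Mb to 9.80 per Mb between 55 and 65 Mb. The 65 Mb boundary did not coincide with a step, since the 2 Mb beyond it held 14 peaks (7 per Mb) and the 3 Mb after those held 79 (26.3 per Mb). The limits at 55 and 67 Mb were set after the windows were seen. Neighbouring peaks were a median of 71.9 kb apart on the proximal long arm and 159 kb apart on the short arm.

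**Figure D2:**
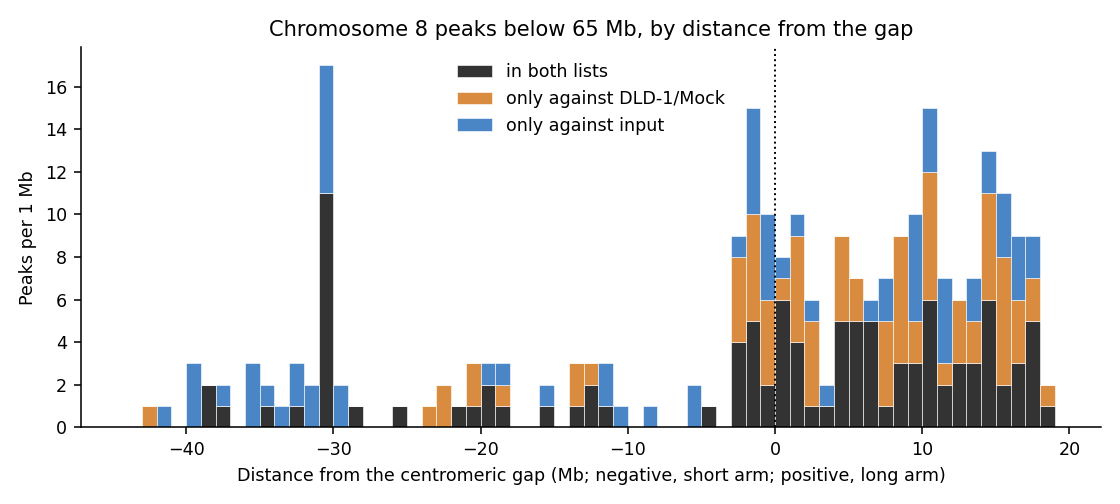
Number of peaks per 1 Mb (y axis) against the distance from the nearer edge of the centromeric gap in Mb (x axis, short arm negative, long arm positive), with bars split into peaks in both lists (black), only against DLD-1/Mock (orange) and only against input (blue). The last long arm bar is a partial window. A narrow group about 30 Mb before the gap holds no orange. A dense stretch lies within 3 Mb before the gap (11.6 peaks per Mb), and the long arm below 55 Mb is less dense (6.84 per Mb).

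The peaks just below the boundary lay at 64915680 (12 tags, fold enrichment 8.45), 64986029 (14 tags, 8.45) and 64989527 (17 tags, 8.45), these folds being against DLD-1/Mock. Just above it, peaks lay at 65003219 (13 tags), 65166119 (18 tags) and 65337452 (18 tags). The first of these was listed only against input, with a fold enrichment of 7.60. Tags on either side of the boundary overlapped.

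Of the 257 peaks, 105 (40.9%, 95% Wilson interval 35.02% to 47.0%) were in both lists, 80 (31.1%) were only in the list against DLD-1/Mock and 72 (28.0%) only in the list against input. The 105 shared peaks made up 56.8% of the 185 called over DLD-1/Mock, where the whole list had 48.1%. They made up 59.3% of the 177 called over input, where the whole list had 60.4%. Both lists were made from a single DLD-1/DKK-1 library, so a shared peak is not a second observation.

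The arms differed in which list held the peaks found in only one. On the short arm 41 peaks (39.4%, interval 30.6% to 49.0%) were called only against input and 23 (22.1%, 15.2% to 31.0%) only against DLD-1/Mock. On the proximal long arm the order was turned, with 31 (20.3%, 14.7% to 27.3%) only against input and 57 (37.3%, 29.99% to 45.1%) only against DLD-1/Mock. The share in both lists was 38.5% on the short arm (29.7% to 48.1%) and 42.5% on the proximal long arm (34.9% to 50.4%), and these intervals overlapped. Chromosomes other than 8 had 26.3% of peaks only against input and 38.5% only against DLD-1/Mock, both within the intervals of the proximal long arm. Chromosome 7, with 11.8% and 59.9%, and chromosome 9, with 13.8% and 53.6%, leaned to DLD-1/Mock. No test was made of these differences, since the lists come from 1 library per condition. The Wilson intervals of shares, here and below, take peaks as independent. Peaks in close groups may not be, so these intervals may be too narrow as well. The order on the short arm rested on its first 15 Mb. From there to the gap it had 22 peaks only over DLD-1/Mock (33.8%) and 19 only over input (29.2%). That was the direction of the proximal long arm, but by a few peaks only and in a stretch picked after its values were seen.

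**Figure D3:**
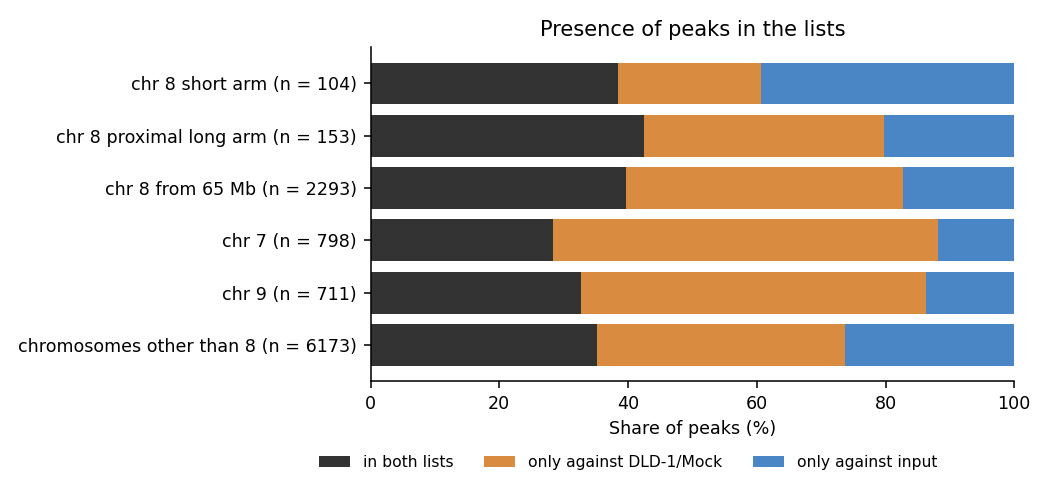
Share of peaks (x axis, %) in both lists (black), only against DLD-1/Mock (orange) and only against input (blue), for each stretch or chromosome (y axis, with its number of peaks). The short arm has the longest blue bar at 39.4%, and chromosome 7 the longest orange bar at 59.9%.

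More than elsewhere on the arm, input-only peaks were listed toward its end. Below 15 Mb, 39 peaks were listed, of which 38 were in the list against input and 17 in the list against DLD-1/Mock. Only 1 of the 39, the peak nearest the end of the chromosome at 1670916 (20 tags), was called against DLD-1/Mock alone, whereas 22 were called against input alone. From 15 to 41 Mb the numbers were even, with 9 peaks only against each control and 13 in both. From 41 Mb to the gap, 13 were only against DLD-1/Mock, 10 only against input and 11 in both.

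The group at 13 Mb was the largest run of neighbouring peaks on the short arm. It comprised 16 peaks within 489 kb, from 13006197 to 13494872, each less than 100 kb from the next. Of these, 11 were in both lists, 5 only against input and 0 only against DLD-1/Mock. They held 12 to 21 tags (median 15.5), close to the median of the arm. Among the 11 shared peaks, fold enrichment was higher against input for 9 and the same against both controls for 2. The fold enrichment over DLD-1/Mock, divided by that over input, had a median of 0.904. Because the tags at the summit are the same in both lists, this ratio is that of the input background to the DLD-1/Mock background which MACS used at the peak. Successive peaks of this group, at 13266870 (19 tags), 13268080 (15 tags) and 13268569 (21 tags), were less than 1 kb apart from one to the next. The peak at 13066598 had the highest fold enrichment of the group, 10.98 against input with 16 tags, and 8.18 against DLD-1/Mock.

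The group before the gap was mixed. Its longest run comprised 14 peaks within 575 kb, from 41797979 to 42373410, of which 5 were in both lists, 5 only against DLD-1/Mock and 4 only against input. In the whole stretch from 41 Mb, 7 of the 11 shared peaks had the higher fold enrichment over DLD-1/Mock, 3 over input and 1 the same, the opposite of the group at 13 Mb. The peak at 42068451 (14 tags) had the highest ratio of both values on the short arm, with a fold enrichment of 11.75 over DLD-1/Mock and of 7.14 over input. The lowest ratio was at 42296141 (25 tags), where the values were 6.82 and 10.12. Neither difference can be set against replicate error.

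The long arm opened with 7 peaks in its first 30.1 kb, from 46958623 to 46988737, and no other run of at least 5 neighbouring peaks was as dense. In order along the chromosome these peaks held 105, 100, 125, 31, 39, 37 and 57 tags, where the median of the proximal long arm was 17. The peaks with 105 and 125 tags had fold enrichments of 17.06 and 15.39 against DLD-1/Mock but 8.59 and 7.89 against input. Of the whole list against DLD-1/Mock, 17.06 was the highest fold enrichment and 515.76, at the peak with 125 tags, the highest score (the score being 10 times −log10 of P). The peak with 100 tags, which lay between them, was missing from that list and was called against input with a fold enrichment of 6.54. The peak with 37 tags was called against DLD-1/Mock alone, with a fold enrichment of 8.84. The peak with 57 tags, at 46987631, had fold enrichments of 4.05 and 4.15, the lowest of both lists below 65 Mb.

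At the 2 peaks with 105 and 125 tags the empirical FDR that MACS derives by exchanging ChIP and control was 100% against both controls. They were the only peaks below 65 Mb with an FDR of 100% against DLD-1/Mock. A high FDR was general, however. Below 65 Mb it was at least 33.33% against DLD-1/Mock (median 46.4%) and at least 65.6% against input (median 72.5%). Against input, 40 of 177 peaks had an FDR of 100%. The densities and list shares given here therefore rest on peaks with a high FDR. On the short arm side, the peak nearest the gap, at 43942490, held 31 tags and was called against DLD-1/Mock alone, with a fold enrichment of 9.82. The largest count of all was farther inside, from 43213412 to 43216475, where a peak 3064 bp wide held 535 tags. It was listed only against input, with a fold enrichment of 5.70, a score of 102.74 and an FDR of 100%. Its end was 727 kb from the gap, with 4 smaller peaks between. What part repeated sequence had in these high counts was not tested. The 4 highest counts (535, 125, 105 and 100) made up 16.3% of the 5323 tags of all 257 peaks.

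Away from these few, peaks below 65 Mb were small. They held a median of 16 tags (interquartile range 14 to 20), the same median as on chromosomes other than 8. The counting interval of a peak with 15 tags ran from 8.40 to 24.7, so most peaks could not be ranked by tags. The median was 15 tags on the short arm (95% order-statistic interval 14 to 16) and 17 on the proximal long arm (16 to 19). More than 30 tags were found in 3 peaks of the short arm and in 12 of the proximal long arm. Median width was 450.5 bp (422 to 473) and 493 bp (465 to 515), beside 515 bp beyond 65 Mb and 462 bp on chromosomes other than 8. Tags per kb of width had a median between 34.0 and 34.2 in each of these stretches and on chromosomes 7 and 9, so this measure did not separate any of them.

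On the proximal long arm, peaks in both lists held a median of 19 tags (17 to 21), those only against DLD-1/Mock 16 (14 to 17) and those only against input 17 (13 to 20). On the short arm the medians were 15.5, 15 and 14. On neither arm were the intervals of these classes separate. The score stayed near the limit of 50 that the P value cut-off sets. Over DLD-1/Mock its median was 56.8 on the short arm and 58.6 on the proximal long arm. Over input the medians were 54.9 and 55.5. A P value of 1e-10 or less was reached by 2 peaks against DLD-1/Mock, both in the group that opens the long arm, and by 6 against input.

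**Figure D4:**
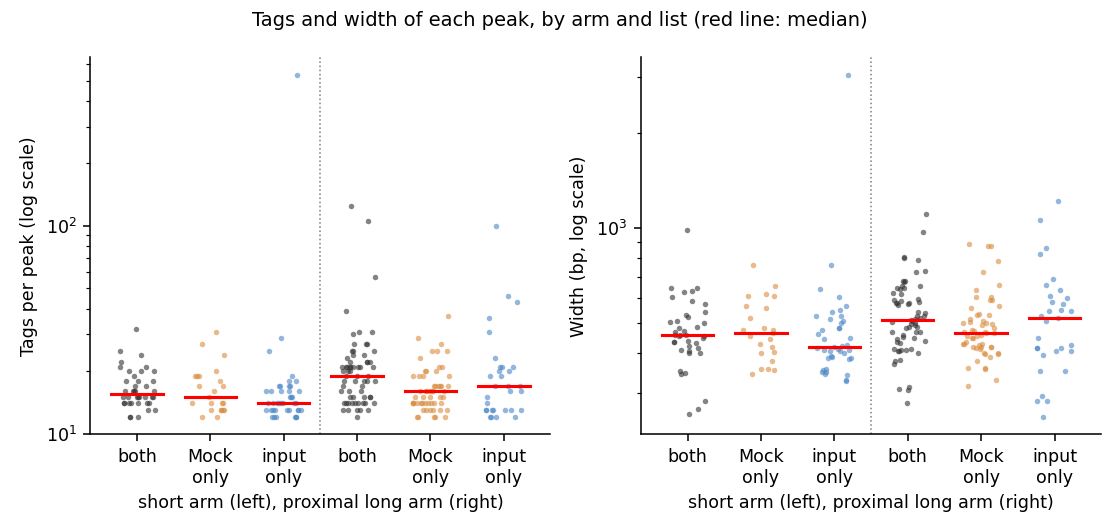
Tags per peak (left panel, log scale) and width in bp (right panel, log scale) for every peak, by arm and by the list that holds it, with each point 1 peak and each red line a median. Medians lie between 14 and 19 tags, and the points far above them are the 535-tag peak of the short arm and the 100-, 105- and 125-tag peaks of the long arm.

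Several further peaks stood out by tags or score. At 58284670 a peak 1218 bp wide held 46 tags and was listed only against input, with a fold enrichment of 4.37. At 56917540 a peak held 43 tags and had a fold enrichment of 10.73 against input, and it was not listed against DLD-1/Mock. The peak at 61308362 held 22 tags, with a fold enrichment of 9.79 over DLD-1/Mock and of 12.29 over input, the latter the highest over input below 65 Mb. On the short arm the peak at 25406809, 986 bp wide with 32 tags, had a fold enrichment of 7.55 over DLD-1/Mock and of 10.84 over input. At 42831236 a peak with 24 tags had the highest score of the short arm against DLD-1/Mock (92.72) and was not listed against input.

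Fold enrichment was compared at the 105 shared peaks. On the short arm it was higher against input at 23 of 40 peaks, higher against DLD-1/Mock at 10 and the same at 7. On the proximal long arm it was higher against DLD-1/Mock at 33 of 65, higher against input at 23 and the same at 9. The ratio of the value over DLD-1/Mock to the value over input had a median of 0.982 on the short arm (interquartile range 0.901 to 1.02), 1.003 on the proximal long arm (0.924 to 1.11) and 1.03 beyond 65 Mb. It was 1.07 on chromosome 7, 1.06 on chromosome 9 and 1 over chromosomes other than 8. The interquartile ranges of the arms overlapped. Within the short arm the median was 1.08 from 41 Mb to the gap and 0.945 below 15 Mb, so the arm was not uniform.

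**Figure D5:**
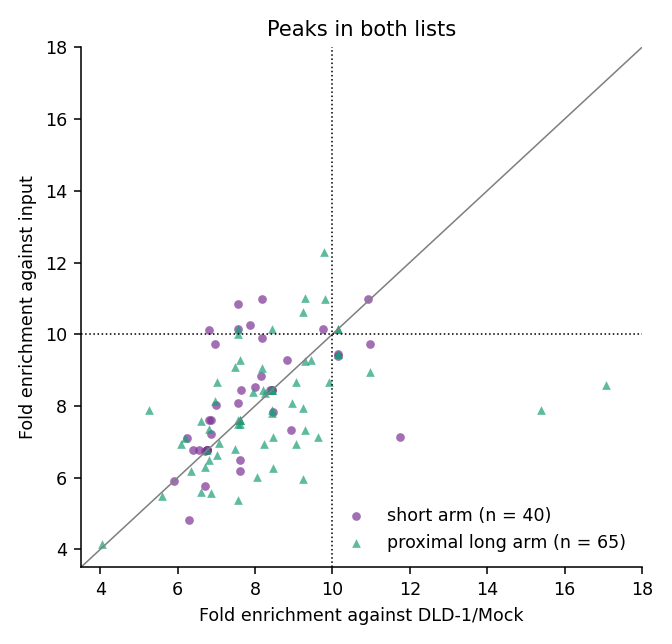
Fold enrichment against DLD-1/Mock (x axis) and against input (y axis) for the 40 short arm peaks (circles) and 65 proximal long arm peaks (triangles) in both lists, with the line of equal values and dotted lines at 10. The triangles far to the right, at 17.06 and 15.39, are the 2 peaks that open the long arm, and 3 peaks reach 10 on both axes, those of SNTG1 and PXDNL as 1 point at 10.14.

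A further measure of the control background came from the fold enrichment itself. Where MACS uses the genome-wide background, here 1.18 expected tags for a fragment length, fold enrichment is a whole number of tags over that value, and where it uses the control near the peak it generally is not. Against input, 43 of 81 short arm peaks (53.1%, interval 42.3% to 63.6%) had such a value within the rounding of 0.005, but 27 of 96 on the proximal long arm (28.1%, 20.1% to 37.8%), 25.0% beyond 65 Mb and 43.8% on chromosomes other than 8. In the list over DLD-1/Mock the same shares were 31.7% (21.6% to 44.0%), 27.9% (20.7% to 36.4%), 34.4% and 38.4%. The difference between the arms in the list over input lay below 15 Mb, where 31 of 38 peaks (81.6%, 66.6% to 90.8%) had such a value. On the rest of the short arm 12 of 43 did (27.9%, 16.7% to 42.7%), a share like that of the proximal long arm.

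A fold enrichment of at least 10 was the threshold used here. Over DLD-1/Mock it was reached by 16 of the 185 peaks (8.65%, where the whole list had 9.12%). Over input it was reached by 23 of the 177 (12.99%, where the whole list had 9.60%). By arm, 6 and 10 of these were on the short arm and 10 and 13 on the proximal long arm. In all 36 peaks reached it in at least one list, and 11 of them were listed in one only. Both thresholds were passed by 3 of the 105 shared peaks, beside 6.27% of shared peaks in the whole series. These 3 were the only entries below 65 Mb of the study's list of 200 specific sites, and each lay in an intron by that list. In the whole series 200 shared peaks passed both thresholds, as many as that list holds. Its entries may thus have been picked by this threshold, so the match is not a separate observation.

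The short arm site was in NRG1, which encodes neuregulin, a ligand of ERBB receptors. It lay from 31901352 to 31901759, 283566 bp from the nearest exon of NM_013962, and held 15 tags (counting interval 8.40 to 24.7). Its fold enrichment was 10.91 over DLD-1/Mock and 10.98 over input, with scores of 64.68 and 65.03. In the list over DLD-1/Mock the FDR was 41.96%, and in that over input 94.68%. The NRG1 transcript, NM_013962, is placed on the plus strand from 31616810 to 32720311. Besides the specific site, the transcript held 3 peaks, at 32126615 (14 tags, only against input, fold enrichment 6.76), 32157713 (20 tags, 7.86 and 10.25 over the respective controls) and 32205765 (14 tags, only against input, 7.60). The density in the transcript was 3.62 peaks per Mb. The 20-tag peak held more tags than the specific site, but their counting intervals overlapped.

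The other sites were in SNTG1, which encodes a syntrophin, an adaptor protein of the dystrophin complex, and in PXDNL, which encodes a peroxidasin-like protein. SNTG1 and PXDNL are neighbours in the RefSeq order of protein-coding genes (GRCh38.p14). The SNTG1 site lay at 51305718 to 51306130, 57971 bp from the nearest exon of NM_018967. It had 13 tags (counting interval 6.92 to 22.2), a fold enrichment of 10.14 against both controls and a score of 50.67, just above the limit. The FDR was 53.76% in the list over DLD-1/Mock and 65.77% in that over input. The SNTG1 transcript, from 50987150 to 51867979, held 9 peaks with 13 to 27 tags, 10.2 per Mb, of which 5 were in both lists, 4 only against DLD-1/Mock and 0 only against input. The peak with 27 tags, at 51079430, reached 10.01 over input but 7.55 over DLD-1/Mock and was not a specific site.

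The PXDNL site lay at 52493808 to 52494484, 677 bp wide and 4204 bp from the nearest exon of NM_144651, and held 25 tags (16.2 to 36.9). It had the same fold enrichment of 10.14 as the SNTG1 site, which equals 12 tags over the genome-wide background in each case, but a score of 99.07. The FDR was 36.33% in the list over DLD-1/Mock and 100% in that over input. Within the PXDNL transcript, on the minus strand from 52394690 to 52884557, 2 other peaks were listed, with 14 tags each and fold enrichments of 7.60 and 8.45 that were the same against both controls. All 3 peaks of PXDNL were thus in both lists with whole numbers of tags over the genome-wide background. The density of peaks was 10.2 per Mb in SNTG1 and 6.12 in PXDNL beside 8.48 on the proximal long arm as a whole. These transcripts, like that of NRG1, were chosen because each holds a specific site. Their densities include that peak, rest on few peaks and cannot be compared evenly with the mean of an arm. Genes at the remaining peaks were not analysed here.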

How the data were processed

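The authors aligned 40 bp reads to hg18 with ELANDv2 in CASAVA 1.7, kept unique alignments and called peaks on single libraries with MACS 1.4.0beta (P value cut-off 1e-05, fragment size 150 bp, effective genome size 2700000000 bp, at most 2 tags per position, regional backgrounds of 1000 and 10000 bp). The tags of a peak are counts of DLD-1/DKK-1 tags, deposited without normalization. The score, as deposited, is 10 × −log10 of MACS's Poisson P value. Fold enrichment is the authors' ratio of summit tags to the expected tags, and the FDR is a percent deposited as MACS wrote it.

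Both lists were joined on chromosome, start and end in Python 3.11.15 (pandas 2.3.3, numpy 2.4.6, scipy 1.17.1) and plotted in matplotlib 3.10.9. The join and the intervals were tested on simulated data. Positions are starts on hg18, counted from 1. Intervals are 95% exact Poisson, Wilson, order-statistic or exact conditional (ratios). Arms were divided by the gap that contains 45 Mb. The widest gap, planned as the divide, lay inside the short arm and became an alternative. Length on other chromosomes is the span from first to last peak, with any centromeric gap included.

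The peaks, groups and thresholds were chosen with earlier results of these data known. Named peaks were those with most tags or the highest score in each arm, those with a fold enrichment of at least 10 over both controls, those in transcripts of the specific sites, the fullest windows, and those at the boundary, the gap and the chromosome end. The stretches below 15 Mb, at 13 Mb, from 41 Mb and at the start of the long arm, and the peaks at 13266870 and 13268080, were picked after their values were seen. Alternatives were stricter P value, fold and FDR, reciprocal overlap, merging, other boundaries and lengths, and left-out stretches. No test was made, and transcripts came from the authors' site list, with only gene order taken from RefSeq (GRCh38.p14).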

Additional observations from a re-analysis of the deposited data

How the results depend on the processing

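Of 97 alternative values for 14 results, 70 stayed within 1.5 times the count or within the interval of the value, and 27 did not. The 70 include values that could not differ, since reciprocal overlap and a fixed dividing point inside the gap left every peak in its class and arm. Fold enrichment of at least 5 kept 255 of 257 peaks, so its values had little room to change. The tally is therefore not a measure of how stable the results were. At P values up to 1e-10 there were 6 peaks in the union, 2 in both lists, 0 only against DLD-1/Mock and 4 only against input. The ratio of the arm densities then rested on 1 and 5 peaks (12.2, interval 1.36 to 576), and 0% of the short arm peaks were in both lists. With an FDR of at most 50% the list against input was empty, which left 109 peaks in the union, 0 in both lists and 0 only against input, and 0% in both lists on either arm. Medians then were 18 tags and 501 bp on the short arm and 20 tags and 524 bp on the proximal long arm, and the density ratio was 4.94. The means were 21.1 tags and 491 bp (short arm) and 20.4 tags and 523 bp (proximal long arm).

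The density ratio, 3.58, was 5.11 without 5 Mb on either side of the gap and 2.32 with length taken as windows that held a peak. Among alternatives chosen after seeing the data, it was 6.40 without 13 to 14 Mb and 41 Mb to the gap and 4.72 in the list against DLD-1/Mock alone. With the division at the widest gap, as first planned, the ratio was 3.77. That gap lies inside the short arm, so the part beyond it included 41 Mb to the centromeric gap. The value of 3.77 is therefore not a ratio of the arms. The gap that contains 45 Mb replaced that divide after the gaps were seen. Without the peaks below 15 Mb the short arm had 29.2% of peaks only over input (39.4% with them), 33.8% only over DLD-1/Mock (22.1%), and 27.9% of its input list at the genome-wide background (53.1%), so that the order of the first pair turned. The long arm was the denser under every alternative for the ratio that compared the arms. Reciprocal overlap of 50% moved 0 peaks, and the arms divided at 45 Mb were the same peaks. Where fewer peaks remained, the change follows from the filter, and the cause of the other changes was not tested. No paired analysis was possible because there were no replicates to pair.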
